A study of Homo sapiens with 18 samples.

Results

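NFE2 and ITGA2B, 2 genes of the megakaryocyte programme, were followed through the OCI-AML2 and OCI-AML3 acute myeloid leukaemia cell lines. They were chosen by name, with earlier results of these data known, and are 2 of the 2422 sets of values in the deposited table that could be tied to a gene symbol, out of 5069 distinct sets. Transcripts were measured by RNA sequencing and deposited as TPM, an abundance scaled by transcript length and by library. The 6 groups held 3 libraries each, all from untreated cells. OCI-AML2 carries unmutated NPM1 (NPM1WT) and OCI-AML3 carries a mutated NPM1 (NPM1c+), which places the protein in the cytoplasm. For each line the parental cells, labelled Caspase-2 WT, stood beside 2 clones labelled Caspase-2 KO, made with CRISPR/Cas9 against CASP2. Each knockout group is 1 clone, and nothing says that its 3 libraries came from separate cultures, so p-values measure the spread between libraries and not between independent clones.

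NFE2 encodes the large, blood-restricted subunit of NF-E2, a basic leucine zipper transcription factor that binds DNA only as a dimer with a small Maf protein such as MAFK, MAFG or MAFF. In megakaryocytes NF-E2 acts late, when the cell makes proplatelets and sheds platelets, and the gene is also transcribed in erythroid, mast and myeloid precursor cells. ITGA2B encodes integrin alpha IIb (CD41), which pairs with the beta 3 chain encoded by ITGB3 to form the fibrinogen receptor of platelets. It is used as an early surface marker of the megakaryocyte lineage.

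The values of both genes need a word on their names, because the table prints some sets of values under more than 1 symbol. The symbol NFE2 stands on 3 lines. A pair of these lines holds the same 18 values, and these values stand once more under the symbol DOLPP1 with the 3 libraries of OCI-AML3 clone 1 in a rotated order. ITGA2B stands on 2 lines, 1 of which has such a rotated twin under the symbol LSM8. In both cases the twin was dropped and the first order was kept. Over the whole table, 0 symbols were tied to more than 1 set by this order or by repetition.

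The remaining line of each gene is a single line without a twin and was not used. The unused NFE2 line read 14.5 ± 2.06 TPM (SD, n = 3) in parental OCI-AML2, 21.8 ± 1.43 and 141 ± 29.1 TPM in its clones 1 and 2, 36.1 ± 4.89 TPM in parental OCI-AML3, and 42.1 ± 3.06 and 47.5 ± 6.79 TPM in its clones. The unused ITGA2B line read 2.32 ± 0.161, 3.37 ± 0.215 and 1.38 ± 0.361 TPM in the 3 OCI-AML2 groups, was at most 0.08 TPM in parental OCI-AML3 and clone 1, and was listed at 0 in clone 2. Both unused lines differ between the parental lines, and of 2561 such single lines 640 carried a symbol already tied to another set, against 1 of 776 single lines without a parental difference. All results that follow rest on the choice of line. With the unused lines, most calls of NFE2 and ITGA2B turn or are lost. For ITGA2B, only the call of OCI-AML2 clone 1 against its parent keeps its direction. The differences between the OCI-AML2 clones, not called for the lines used, are called in both genes with the unused lines. In these bulk libraries, fewer cells expressing a gene and less RNA per cell cannot be told apart.

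For reference, the 250 bases before the start of ITGA2B in the RefSeq promoter table were searched for letters that factors of this lineage are known to bind (GRCh38.p14, chr17:44389650-44389899, minus strand, written 5′ to 3′ along the gene). The window is shown because ITGA2B and the gene of the factor NF-E2 moved in opposite directions in OCI-AML3, with the GATA match in capitals. The build behind the deposited values is not given in the sources used here, and no measurement of binding was made.
ITGA2B: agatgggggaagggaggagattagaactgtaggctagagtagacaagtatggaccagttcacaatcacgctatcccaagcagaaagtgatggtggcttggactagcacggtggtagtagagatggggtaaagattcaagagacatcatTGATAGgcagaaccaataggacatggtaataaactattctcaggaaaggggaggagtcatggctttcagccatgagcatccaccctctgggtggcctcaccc
On both strands, GATA words (AGATAA, with T also allowed as the first letter and G as the last) matched once, as TGATAG at 102 bases before the start. Of 35116 windows of the same length, 22.3% hold at least 1 of these words. The NF-E2 core word TGAGTCA, held by 4.2% of windows on either strand, was not among the letters of this window. Neither was the ETS word CGGAAG, with A also allowed as its first letter, which 40.8% of windows hold. The NFE2 window was not in the table.

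As a check of the labels, CASP2 mRNA ran from 35.32 to 37.29 TPM in parental OCI-AML2 and from 3 to 5.06 TPM over its 2 clones. In OCI-AML3 it ran from 28 to 30.11 TPM in parental cells, from 26.34 to 27.83 TPM in clone 1 and from 29.82 to 35.39 TPM in clone 2. The mRNA level therefore sets the OCI-AML2 clones apart from their parent. In OCI-AML3 it does not check the knockout label, and a direction in that line refers to the clones as labelled.

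NFE2 was higher in all 4 knockout clones than in the parental cells of the same line. The parental OCI-AML2 libraries, replicates 1 to 3, read 7.33, 8.29 and 8.38 TPM. The libraries of OCI-AML2 clone 1 read 28.95, 28.05 and 24.73 TPM, and those of clone 2 read 25.69, 33.15 and 31.85 TPM. Every clone library lay above every parental library, and the libraries of the 2 clones overlapped. The mean rose from 8.0 ± 0.582 TPM in parental cells to 27.2 ± 2.22 and 30.2 ± 3.99 in the clones (SD, n = 3), which is 3.41-fold and 3.78-fold. On the log2(TPM + 1) scale the rises were 1.65 and 1.79 (SE 0.127 each; limma, Benjamini-Hochberg adjusted p = 3.68e-09 and 8.14e-10). Of the 4413 sets tested, 56% were called in either direction for clone 1 and 65.7% for clone 2, and 23.8% were higher in both clones. NFE2 was among the larger rises, with 2.4% of tested sets above it in the mean of both clones.

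In OCI-AML3, NFE2 started from a lower level and rose by a larger factor. The parental libraries read 1.02, 1.12 and 0.68 TPM. Those of clone 1 read 11.48, 13.09 and 10.68 TPM, and those of clone 2 read 10.97, 14.84 and 10.59 TPM. Again no clone library overlapped the parental ones, and the clones overlapped each other. Mean NFE2 rose from 0.94 ± 0.231 TPM in parental cells to 11.75 ± 1.23 and 12.1 ± 2.35 in the clones, a 12.5-fold and a 12.9-fold rise. The log2(TPM + 1) rises were 2.72 and 2.75 (SE 0.127 each; limma adjusted p = 1.53e-12 and 1.29e-12). Here 72.2% and 73.1% of tested sets were called in clones 1 and 2 and 28.7% were higher in both, and 1.13% of sets rose more than NFE2 in the mean of both clones. Of all tested sets, 6.44% were, like NFE2, higher in both clones of both lines.

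ITGA2B was low in every group and highest in parental OCI-AML3, where NFE2 was lowest. The parental OCI-AML3 libraries read 2.90, 2.57 and 2.98 TPM. OCI-AML3 clone 1 read 0.19, 0.43 and 0.69 TPM, and clone 2 read 0.22, 0.31 and 0.43 TPM. No clone library came near the parental ones, while the 2 clones overlapped. Mean ITGA2B fell from 2.82 ± 0.217 TPM in parental cells to 0.437 ± 0.25 and 0.32 ± 0.105 in the clones, which is 6.45-fold and 8.80-fold lower. On the log2(TPM + 1) scale it fell by 1.42 and 1.53 (SE 0.105 each; limma adjusted p = 7.56e-10 and 2.69e-10). In these comparisons 38.3% of tested sets were lower in both clones, and 8.11% fell more than ITGA2B. ITGA2B reached 1 TPM, the level needed in 3 libraries to be tested, in only 4 libraries, and 3 of them were those of parental OCI-AML3, so a gene that passed in this way had to differ there.

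In OCI-AML2, ITGA2B was below 1.1 TPM throughout. The parental libraries read 0.51, 0.53 and 0.60 TPM. Those of clone 1 read 0.74, 0.88 and 0.94 TPM, and those of clone 2 read 0.79, 0.74 and 1.03 TPM. The clone libraries lay above the parental ones without overlap, by a small margin. The mean went from 0.547 ± 0.0473 TPM to 0.853 ± 0.103 and 0.853 ± 0.155, each 1.56-fold, and the log2(TPM + 1) differences were 0.26 and 0.26 (95% intervals 0.0384 to 0.481 and 0.0366 to 0.48; limma adjusted p = 0.0427 and 0.0379). These calls did not hold across settings. With a pseudocount of 0.1 TPM the adjusted p was 0.101 and 0.0903, and after rescaling the libraries by medians of ratios it was 0.1 and 0.054.

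The same small ITGA2B calls also ended without single libraries. Without OCI-AML2 parental replicate 1, 2 or 3, the limma adjusted p was 0.105, 0.0936 and 0.058 for clone 1 and 0.0948, 0.0829 and 0.0504 for clone 2. For clone 1 it was 0.0982 without clone 1 replicate 2 and 0.126 without its replicate 3, and 0.0503 without either OCI-AML3 parental replicate 1 or OCI-AML3 clone 1 replicate 2. For clone 2 it was 0.162 without clone 2 replicate 3. ITGA2B in OCI-AML2 is therefore given as values and is not described as a change.

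**Figure D1:**
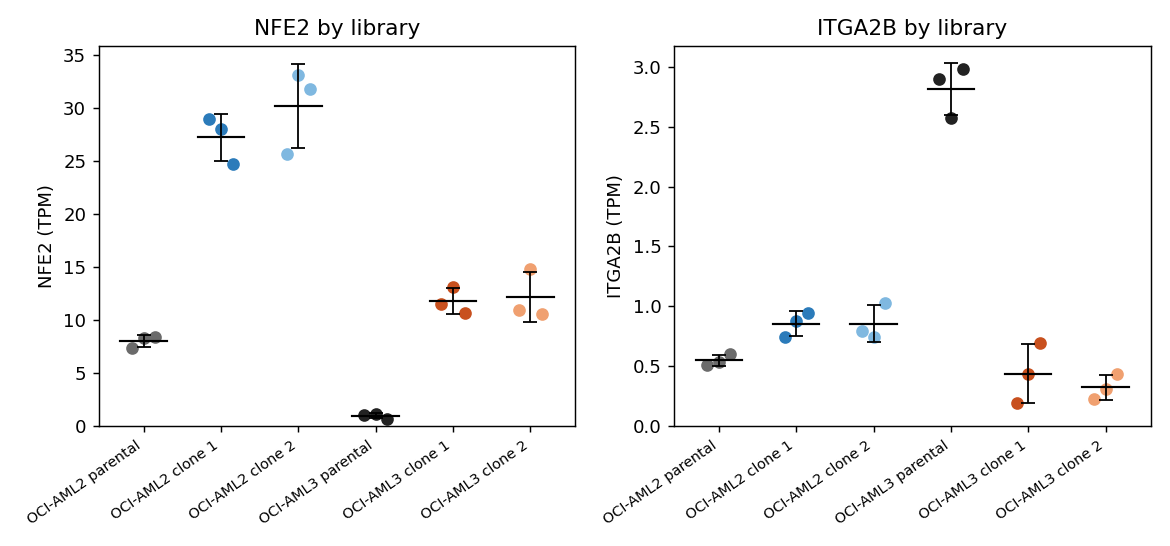
NFE2 (left) and ITGA2B (right) in TPM in each library of the 6 groups, with points for libraries, a horizontal bar for the group mean and whiskers for the SD (n = 3). Parental OCI-AML3 has the lowest NFE2 (0.68 to 1.12 TPM) and the highest ITGA2B (2.57 to 2.98 TPM), and the scales of the 2 panels differ.

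Between the parental lines, the 2 genes differed in opposite directions. NFE2 was 8.51-fold lower in OCI-AML3 than in OCI-AML2 (log2(TPM + 1) difference -2.22, SE 0.127, limma adjusted p = 8.93e-12). ITGA2B was 5.15-fold higher in OCI-AML3 (1.30, SE 0.105, adjusted p = 1.23e-09). Of the 4 libraries where ITGA2B reached 1 TPM, 3 were parental OCI-AML3. The gene was tested through that group, so this p-value is not independent evidence of a difference. The table is rich in genes that differ between the parents, since 90.6% of tested sets were called in this comparison.

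In order of mean level, NFE2 ran from OCI-AML2 clone 2 through OCI-AML2 clone 1, OCI-AML3 clone 2, OCI-AML3 clone 1 and parental OCI-AML2 to parental OCI-AML3. Only the 2 neighbouring pairs made of clones of the same line overlapped in their libraries. The OCI-AML3 clones thus stood above parental OCI-AML2, since their lowest library (10.59 TPM) exceeded its highest (8.38 TPM). For ITGA2B, parental OCI-AML3 came first, the OCI-AML2 clones with equal means followed, and then came parental OCI-AML2, OCI-AML3 clone 1 and OCI-AML3 clone 2. Parental OCI-AML2 (0.51 to 0.60 TPM) lay inside the range of OCI-AML3 clone 1 (0.19 to 0.69 TPM), which overlapped clone 2 (0.22 to 0.43 TPM), while parental OCI-AML2 lay above OCI-AML3 clone 2 without overlap.

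The 2 clones of a line did not differ detectably in either gene. For NFE2 the difference of clone 2 minus clone 1 was 0.14 in OCI-AML2 (95% interval -0.128 to 0.408, limma adjusted p = 0.382) and 0.03 in OCI-AML3 (-0.235 to 0.300, adjusted p = 0.938), on the log2(TPM + 1) scale. For ITGA2B it was -0.00178 in OCI-AML2 (-0.223 to 0.220, adjusted p = 1) and -0.11 in OCI-AML3 (-0.332 to 0.111, adjusted p = 0.584). Over all tested sets, 58.9% differed between the OCI-AML2 clones and 6.82% between the OCI-AML3 clones.

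The change from parental cells to clones differed between the lines for both genes. The NFE2 rise was larger in OCI-AML3 by 1.02 on the log2(TPM + 1) scale (SE 0.156, limma adjusted p = 1.02e-05), and each of the 4 pairings of an OCI-AML3 with an OCI-AML2 clone gave a positive difference, from 0.93 to 1.10 (highest adjusted p = 0.000137), a pattern of 24.2% of tested sets. The ITGA2B change was lower in OCI-AML3 by 1.74 (difference -1.74, SE 0.128, adjusted p = 8.36e-10), and its 4 pairings gave -1.79 to -1.68 (highest adjusted p = 1.11e-08), as did 37.1% of tested sets in sign and call. Parental OCI-AML3, through which ITGA2B came to be tested, enters each of these differences, so their p-values carry the same limit. In this comparison 81.7% of tested sets were called. The median over all tested sets was -0.234, and -0.084 after rescaling by medians of ratios. With a pseudocount of 0.1 TPM the line differences were 1.72 for NFE2 and -3.24 for ITGA2B, and the ITGA2B differences were -2.56 and -2.82 in the OCI-AML3 clones and 2.17 between the parental lines. Exact two-sided permutation tests of 3 against 3 libraries cannot go below p = 0.1. They gave 0.1 for each clone against its parent and for the parental lines, in both genes, and 0.3 to 1 between clones of a line (adjusted over the 14 tests, 0.14 and 0.382 to 1).

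**Figure D2:**
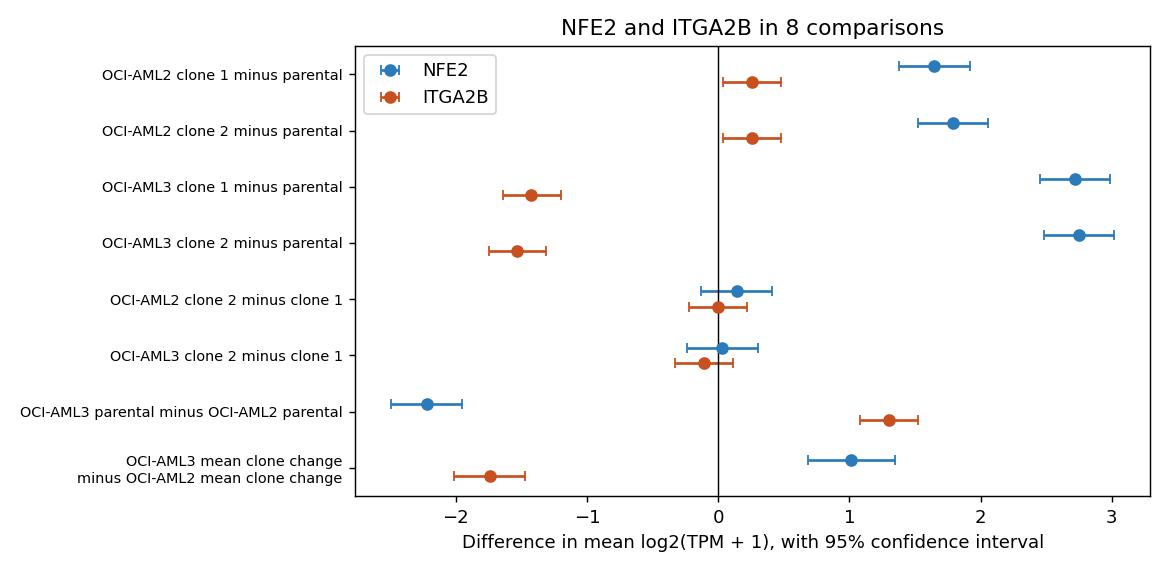
Differences in mean log2(TPM + 1) for NFE2 and ITGA2B in 8 comparisons, with 95% confidence intervals from the fit over all 18 libraries. In OCI-AML3 the clones lie at 2.72 and 2.75 for NFE2 and at -1.42 and -1.53 for ITGA2B, while the intervals between clones of a line span 0.

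Set side by side within a library, the 2 genes changed places in OCI-AML3. In its parental libraries ITGA2B was above NFE2, at 2.84, 2.29 and 4.38 TPM for each TPM of NFE2 in replicates 1 to 3. In every library of the other 5 groups NFE2 was above ITGA2B. The ratio of NFE2 to ITGA2B was 13.97 to 15.6 in parental OCI-AML2, 26.3 to 39.1 in its clone 1 and 30.9 to 44.8 in its clone 2. In OCI-AML3 clone 1 it was 15.5 to 60.4 and in clone 2 24.6 to 49.9.

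**Figure D3:**
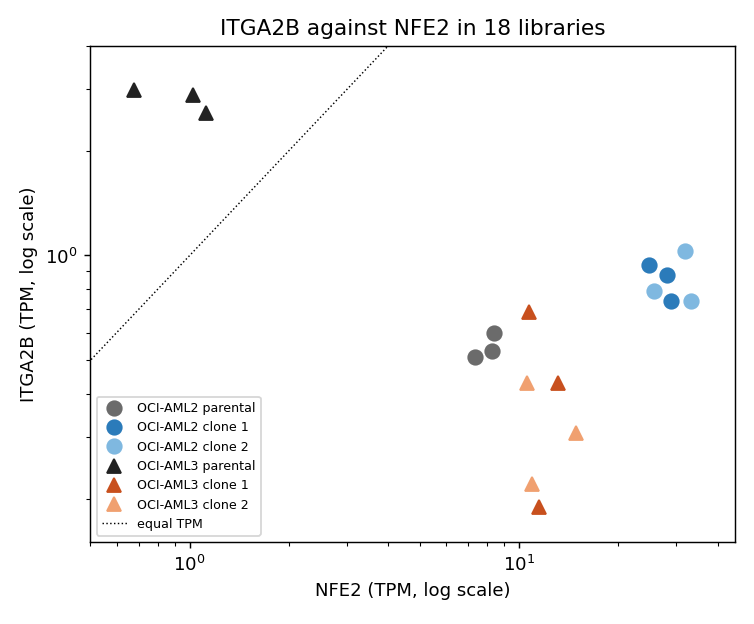
ITGA2B (vertical) against NFE2 (horizontal) in TPM on log axes, 1 point per library, with circles for OCI-AML2, triangles for OCI-AML3 and a dotted line at equal TPM. The 3 parental OCI-AML3 libraries lie above the line and all others below it.

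Besides NFE2, the only gene of its listed family with a settled name was MAFK, which followed NFE2 in direction. MAFK encodes a small Maf protein that forms the DNA-binding dimer with the NFE2 product. Parental OCI-AML2 libraries read 18.94, 16.88 and 19.73 TPM of MAFK, against 27.56, 28.37 and 25.80 for clone 1 and 42.50, 35.06 and 37.01 for clone 2. Parental OCI-AML3 libraries read 7.89, 7.46 and 7.48 TPM, against 17.97, 19.96 and 21.24 for clone 1 and 19.37, 20.67 and 18.68 for clone 2. No clone library overlapped its parent. The log2(TPM + 1) rises of MAFK were 0.53 and 1.00 in OCI-AML2 clones 1 and 2 and 1.26 in each OCI-AML3 clone (highest limma adjusted p = 2.26e-05). In mean TPM, a scale that allows for transcript length, MAFK stood above NFE2 in every group except OCI-AML2 clone 1, where both read 27.2. The means of MAFK and NFE2 were 18.5 and 8.0 in parental OCI-AML2 and 38.2 and 30.2 in its clone 2. In OCI-AML3 they were 7.61 and 0.94 in parental cells, 19.7 and 11.75 in clone 1, and 19.6 and 12.1 in clone 2. Of the 10 listed genes of the cap n collar and small Maf family, 3 are printed in the table and 2, NFE2 and MAFK, had a settled name.

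**Figure D4:**
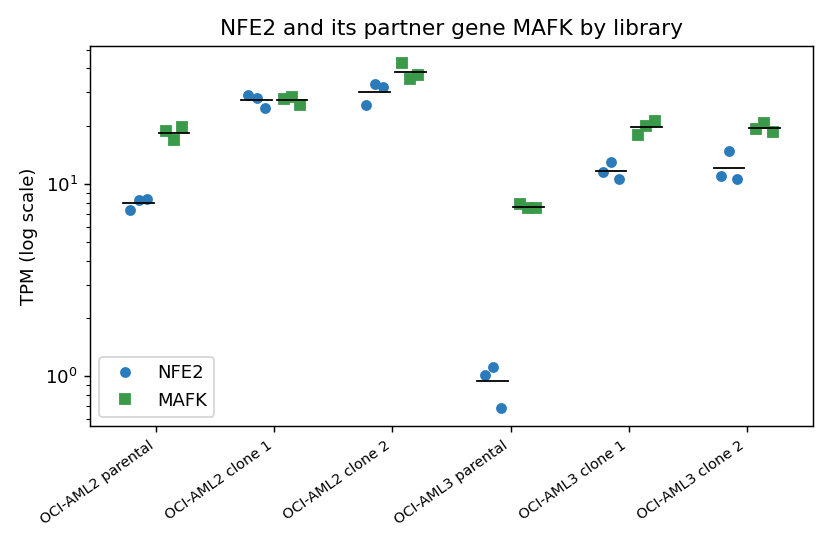
NFE2 (circles) and MAFK (squares) in TPM on a log axis in each library, with a bar at each group mean. Both are lowest in parental OCI-AML3 (means 0.94 and 7.61 TPM) and highest in OCI-AML2 clone 2 (30.2 and 38.2 TPM).

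MAFK was also among the 5 tested genes whose log2(TPM + 1) values were most like NFE2 over the 18 libraries. These were CYTH3, an exchange factor for ARF GTPases (Pearson r = 0.97), TNFAIP3, the NF-kappaB inhibitor A20 (0.97), CCZ1, a lysosomal trafficking gene with a near-identical copy (0.969), MAFK (0.968) and SLC6A6, the taurine transporter (0.967). Mean TNFAIP3 was 13.7 TPM in parental OCI-AML2 and 20.8 and 28.8 in its clones, and 2.703 TPM in parental OCI-AML3 and 16.7 in each of its clones. For ITGA2B the 5 were TBC1D9 (0.964), the ankyrin gene ANK2 (0.954), TMCC2 (0.952), FAM171B (0.951) and LOC339862 (0.948). In all 5, mean TPM was highest in parental OCI-AML3 (3.36 to 5.85) and at most 1.47 in any other group. Such correlations can rest on that 1 high group. Mean TBC1D9 was 0.177 TPM in parental OCI-AML2 and 0.91 and 0.93 in its clones, and 4.36 TPM in parental OCI-AML3 and 0.243 and 0.173 in its clones. The 18 libraries make only 6 conditions, and libraries of a condition share their cells, so these correlations are a description of shared levels.

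Surface genes of megakaryocytes and platelets did not all move one way. For this and the lists that follow, the shares to read a count against are those over the 2123 tested sets with a name. In OCI-AML3, 36.5% of these were called higher with each clone and 48.3% lower, and in OCI-AML2 28.8% were called higher with each clone and 17% lower. The surface list has 27 genes, of which 16 are printed in the table and 6 could be tested under a settled name. In OCI-AML3, 3 of these rose in both clones and 3 fell, ITGA2B among the latter (median log2 change -0.26, against -0.22 over all named sets). CD9, a tetraspanin, had the directions of ITGA2B, falling from 2.82 ± 0.19 TPM in parental OCI-AML3 to 0.227 ± 0.148 and 0.1 ± 0.1. CD9 reached 1 TPM in 9 libraries, only in parental OCI-AML3 and the OCI-AML2 clones. It was thus tested through the groups where it is high, and its differences are not independent evidence. F2R, the thrombin receptor, fell in OCI-AML3 from 4.52 ± 0.299 TPM to 0.157 ± 0.114 and 0.427 ± 0.085. CD36, the thrombospondin receptor of platelets and monocytes, rose from 1.12 ± 0.376 TPM to 40.4 ± 1.69 and 34.5 ± 0.9504. GP1BB, a chain of the von Willebrand factor receptor whose reads are uncertain because a readthrough of its neighbour SEPTIN5 overlaps it, rose from 55.05 ± 9.305 TPM to 134 ± 4.17 and 142 ± 21.6. TBXA2R, the thromboxane receptor, rose from 0.14 ± 0.07 TPM to 1.35 ± 0.254 and 1.16 ± 0.513.

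In OCI-AML2, 0 of the 6 surface genes were called lower in both clones, against 17% of named sets and 14.6% of all tested sets. The median log2 change of the 6 was 0.24, against 0.07 over all named sets. Called higher in both clones were 2 of the 6, against 28.8% of named sets. One was CD9, which rose from 0.46 ± 0.183 TPM to 8.03 ± 0.492 and 6.26 ± 1.41, and the other was ITGA2B with the unstable calls given above. The CD9 rise carries the limit already stated, since both clones are among the groups through which CD9 was tested. Being higher in both OCI-AML2 clones and lower in both OCI-AML3 clones was shared by 8.34% of all tested sets.

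Granule and secreted genes of megakaryocytes had 5 tested members out of 18 listed. In OCI-AML3, 4 were higher in both clones (against 36.5% of all named sets) and 0 lower (against 48.3%). In OCI-AML2 2 were higher (against 28.8%) and 0 lower (against 17%). The median log2 changes were 0.98 in OCI-AML3 (against -0.22 over all named sets) and 0.83 in OCI-AML2 (against 0.07). PDGFA, a platelet-derived growth factor chain, rose most in OCI-AML3, from 1.39 ± 0.0173 TPM to 25.7 ± 1.196 and 26.5 ± 1.15. The chemokine gene CCL5 (mean log2(TPM + 1) change of both clones 1.58), THBS1, which encodes thrombospondin (0.98), and the matrix gene SPARC (0.43) also rose there. The levels of THBS1 and SPARC in OCI-AML3 were low. THBS1 went from 0.0267 TPM to 1.14 and 0.917, and SPARC from 0.01 TPM to 0.387 and 0.35. SPARC reached 1 TPM only in OCI-AML2 groups. In OCI-AML2, NRGN, a calmodulin-binding protein gene, rose from 31.2 ± 1.75 TPM to 67.7 ± 9.39 and 164 ± 17.03, and SPARC rose from 28.9 ± 0.865 TPM to 60.3 ± 3.74 and 53.5 ± 2.72.

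Of 18 genes of the proplatelet cytoskeleton 3 were tested, with 3 called higher in both OCI-AML2 clones (against 28.8% of all named sets) and 2 lower in both OCI-AML3 clones (against 48.3%). One of the 3, RAB27B, was tested through OCI-AML2 clone 2 alone. TUBA4A, an alpha tubulin with close paralogs, fell in OCI-AML3 from 12.1 ± 1.54 TPM to 0.377 ± 0.0577 and 0.317 ± 0.115. In OCI-AML2 TUBA4A rose from 45.8 ± 5.41 TPM to 78.9 ± 9.57 and 118 ± 17.7. FLNA, which encodes filamin A, fell in OCI-AML3 from 362 ± 24.7 TPM to 123 ± 0.98 and 134 ± 6.19. Its mean log2 change in OCI-AML2 was 0.68, and after rescaling (0.61) it was no longer called in both clones.

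RAB27B and TBXAS1 were the 2 tested genes of 10 listed as described targets of NF-E2. In the main fit, RAB27B was called in the direction of NFE2 only in OCI-AML2, and TBXAS1 only in OCI-AML3. RAB27B, a GTPase gene of platelet granules that is also on the cytoskeleton list, was higher in OCI-AML2 clones, going from 0.29 ± 0.0265 TPM to 0.583 ± 0.0907 and 3.01 ± 0.499 (limma adjusted p = 0.0028 and 2.65e-12). It reached 1 TPM only in the 3 libraries of OCI-AML2 clone 2, through which it came to be tested, so its difference there was set by that minimum. In OCI-AML3 no library exceeded 0.12 TPM of RAB27B (adjusted p = 0.43 and 0.402). With a pseudocount of 0.1 TPM, RAB27B was called higher in both OCI-AML3 clones (mean log2 change 0.55, against 0.07 in the main fit). TBXAS1, thromboxane synthase, fell in OCI-AML2 from 45.4 ± 4.68 TPM to 23.3 ± 4.28 and 19.8 ± 1.14, where NFE2 rose. In OCI-AML3 TBXAS1 rose from 0.203 ± 0.0611 TPM to 0.693 ± 0.118 and 0.71 ± 0.324.

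Of 22 listed transcription factors of the megakaryocyte and erythroid lineages, 8 are printed in the table and 3 were tested. All 3, NFE2 among them, were higher in both OCI-AML3 clones, against 36.5% of all named sets. TAL1, a basic helix-loop-helix factor, rose from 3.79 ± 0.413 TPM to 7.47 ± 1.08 and 8.3 ± 0.811. LMO2, a bridging protein of the TAL1 and GATA complex, rose from 105 ± 6.24 TPM to 312 ± 16.1 and 254 ± 21.8. In OCI-AML2 no library exceeded 0.43 TPM of TAL1 (limma adjusted p = 0.625 and 0.107). The LMO2 difference there, 0.25 in the mean of both clones, lost its call after rescaling (0.19) and without any 1 of replicates 1 and 3 of the OCI-AML2 parental cells, of clone 1 or of clone 2 (0.21 to 0.25).

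**Figure D5:**
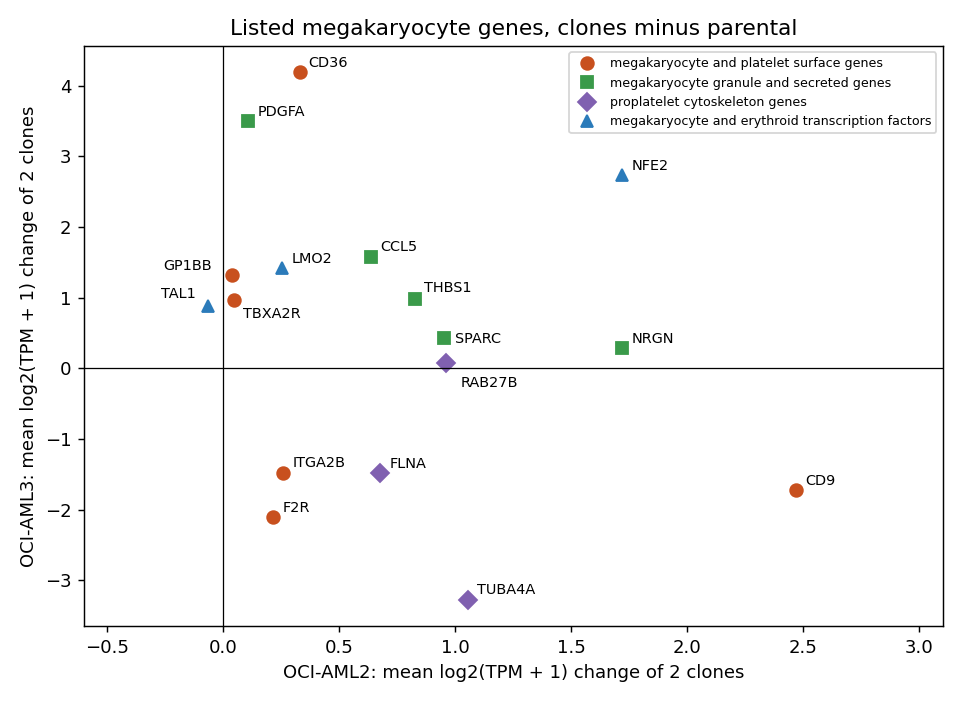
Mean log2(TPM + 1) change of the 2 clones in OCI-AML2 (horizontal) and in OCI-AML3 (vertical) for the tested genes of 4 megakaryocyte lists, marked by list. NFE2 lies at 1.72 and 2.74, and ITGA2B, with CD9, F2R, FLNA and TUBA4A, lies below 0 in OCI-AML3 and above 0 in OCI-AML2, where F2R rose in clone 1 and fell in clone 2 and the calls of ITGA2B and FLNA in both clones ended after rescaling.

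Among integrin subunits, 9 of 26 listed were tested. In OCI-AML3, 4 were called higher in both clones (against 36.5% of all named sets) and 5 lower (against 48.3%), ITGA2B included (median -0.21). In OCI-AML2 4 were called higher (against 28.8%) and 1 lower (against 17%), with a median of 0.26. Several of these calls were unstable. The lower call of ITGB7 in OCI-AML3 (mean log2 change -0.37) ended with a pseudocount of 0.1 TPM (-0.95), after rescaling (-0.31), and without any 1 of the 3 parental libraries, clone 1 replicate 3, or clone 2 replicate 1 or 2 (-0.39 to -0.29). That of ITGAM, the alpha chain of complement receptor 3 (-0.21), ended without parental replicate 2 (-0.19) or clone 2 replicate 3 (-0.19) of OCI-AML3. In OCI-AML2 the higher call of ITGB5, a partner of alpha V (0.32), ended without parental replicate 1 or 3 or clone 2 replicate 2 or 3 (0.26 to 0.31), beside the ITGA2B calls given above. ITGAM reached 1 TPM only in OCI-AML2 clones and ITGB5 only in OCI-AML3 clones, so they were tested through those groups. ITGB7 reached 1 TPM in 8 libraries, all of OCI-AML2 and most of them from its clones, so it was tested through the clones. No OCI-AML3 library exceeded 0.84 TPM of ITGB7. The leukocyte pair ITGAL and ITGB2, the chains of LFA-1, went the other way from ITGA2B in OCI-AML3. ITGAL rose there from 20.9 ± 0.243 TPM to 64.1 ± 1.95 and 63.9 ± 4.39, and ITGB2 from 280 ± 6.89 TPM to 724 ± 8.74 and 647 ± 17.5. ITGAX, the alpha chain of complement receptor 4, fell from 8.97 ± 1.003 TPM to 2.65 ± 0.265 and 3.08 ± 0.291. ITGB7, the chain that pairs with alpha 4 and alpha E, rose most in OCI-AML2, from 1.08 ± 0.4 TPM to 7.16 ± 0.486 and 10.9 ± 0.204. ITGB3, the partner chain of alpha IIb, is printed in the table without a settled name, so the level of the complete receptor was not analysed here.

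Genes that signal to or from alpha IIb beta 3 had 5 tested members of 26. In OCI-AML3, 2 were higher in both clones (against 36.5% of all named sets) and 3 lower (against 48.3%), with a median of -0.65. In OCI-AML2 1 was higher (against 28.8%) and 3 lower (against 17%), with a median of -0.42. FERMT2, which encodes the integrin activator kindlin-2, went in OCI-AML3 from 3.79 ± 0.257 TPM to 0.127 ± 0.0757 and 0.163 ± 0.0208. Parental OCI-AML3 was the only group where FERMT2 reached 1 TPM, in 3 libraries, so it was tested through the group where it is high and had to differ there. FYB1, an adaptor of the integrin pathway, rose in OCI-AML3 from 0.483 ± 0.107 TPM to 4.89 ± 0.434 and 4.81 ± 0.155. In OCI-AML2 FYB1 rose as well (mean log2 change 0.46). Of 7 ligands of the receptor, THBS1 was tested, with the rise in OCI-AML3 given above.

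A wider check of the lineage was limited, because 4 of 11 fixed megakaryocyte markers are printed in the table and 1, GP1BB, had a settled name. Of the 10 fixed erythroid and 5 stem cell markers, 0 are printed in it. Among wider lists, erythroid genes had 1 tested member, the blood group gene XK, which was higher in both OCI-AML2 clones (mean log2 change 0.73) and lower in both OCI-AML3 clones (-1.001). The mast cell list also had 1, TPSB2, a tryptase gene with a near-identical copy and thus uncertain, higher in both OCI-AML3 clones (2.04). Monocyte genes, with 5 tested, had 4 higher (against 36.5% of all named sets) and 1 lower (against 48.3%) in OCI-AML3 and 1 higher (against 28.8%) and 2 lower (against 17%) in OCI-AML2. Against the same shares, neutrophil granule genes, with 5 tested, had 1 higher and 2 lower in OCI-AML3 and 2 higher and 0 lower in OCI-AML2. The lymphocyte list had 1 tested gene, CD3D, higher in both OCI-AML2 clones (mean log2 change 1.23), the groups through which it was tested, and the stem and progenitor list had 0.

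Markers of other myeloid cells also differed between groups, and not all in one direction. The 2 settled monocyte markers of 6, CD14 and CD68, went in opposite directions in OCI-AML3, CD14 from 0.813 ± 0.4398 TPM to 42.1 ± 1.302 and 50.2 ± 2.81 and CD68 from 823 ± 86.2 TPM to 188 ± 12.4 and 216 ± 14.9. Their sum ran from 770 to 923 TPM in parental OCI-AML3, from 220.01 to 245 in clone 1 and from 253 to 285 in clone 2. In OCI-AML2 it ran from 687 to 740 TPM in parental cells, from 585 to 852 in clone 1 and from 517 to 617 in clone 2. The 3 settled neutrophil granule markers of 8, PRTN3, AZU1 and CTSG, summed to 13450 to 15192 TPM in parental OCI-AML3, 3756 to 3910 in clone 1 and 4499 to 5110 in clone 2. In OCI-AML2 they summed to 4437 to 5022 TPM in parental cells, 8959 to 11385 in clone 1 and 3418 to 4314 in clone 2. These sums join unlike members. In OCI-AML3, PRTN3 and CTSG were called lower in both clones, while mean AZU1 went from 1403 TPM to 1371 and 1575 (limma adjusted p = 0.877 and 0.216). In OCI-AML2, mean AZU1 went from 2079 TPM to 6751 and 2386. There PRTN3 went from 1110 TPM to 1666 and 800, and CTSG from 1464 TPM to 1778 and 666. None of these markers was at 0 in every library. Their part in the levels of NFE2 and ITGA2B was not tested.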

How the data were processed

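RNA-seq values of 18 libraries were analysed as the TPM values the authors deposited, named so per the file headers. The aligner, counter, build and annotation were not given in the sources used here. TPM keeps no read counts, so depth is unknown and no counting interval is given. All 18 value columns matched a library by title. The 6999 lines, with 4816 symbols, were reduced to 5069 distinct sets of values. Symbols were kept where repeated lines shared them (413 sets), where the library order of OCI-AML3 clone 1 told twins apart (1234), and for 775 single lines whose parental lines differed by less than 0.6 in log2 ratio (0.1 TPM added). Which of the 2 orders names the clone 1 replicates correctly is unknown, and group means do not depend on it. The distinct sets sum to 170141 to 199403 TPM per library, so the table is part of each library.

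A model with 1 mean for each group was fitted to log2(TPM + 1) of all 18 libraries (limma 3.58.1, R 4.3.3, intensity trend). Benjamini-Hochberg adjustment covered the 4413 sets reaching 1 TPM in 3 libraries or more. The threshold was 0.05, two-sided, and a listed gene was counted for a line when its 2 clones both passed with 1 sign. Fold changes are ratios of mean TPM. NFE2 and ITGA2B and the gene lists were chosen with earlier results of these data known. Named are both genes, listed genes with a settled symbol, and the 5 genes most correlated with each. Alternatives were another pseudocount, other minimum levels, rescaling, no trend, fits on the compared groups only, a replicate block and leaving out each library. Replicate numbers in the titles name no shared source, and the block is treated as an alternative only.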

Additional observations from a re-analysis of the deposited data

Results flagged for a closer look

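The change from parental cells to knockout clones differed between the lines for NFE2 and for ITGA2B, by the test of the difference itself in limma. For NFE2 the OCI-AML3 change exceeded the OCI-AML2 change by 1.02 on the log2(TPM + 1) scale (adjusted p = 1.02e-05), with rises in both lines. For ITGA2B the difference was -1.74 (adjusted p = 8.36e-10), with a fall in both OCI-AML3 clones and a small upward difference in both OCI-AML2 clones whose call did not hold across settings. ITGA2B passed the minimum of 1 TPM through parental OCI-AML3, which enters this difference, so its p-value is not independent evidence.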

How the results depend on the processing

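The NFE2 calls against parental cells in both lines, and the calls of both genes for OCI-AML3 clones, the parental lines and the difference between lines, kept direction and call in all 25 alternative settings for NFE2 and 24 for ITGA2B, which was not tested with a minimum of 5 TPM. ITGA2B in OCI-AML2 lost its call with a pseudocount of 0.1 TPM (0.56 for clone 1, 0.55 for clone 2) and after rescaling (0.22 and 0.25), and ranged from 0.23 to 0.30 and from 0.19 to 0.30 when 1 library was left out. The uncalled differences of clone 2 minus clone 1 changed sign: ITGA2B in OCI-AML2 after rescaling (0.0303) and over -0.0691 to 0.0421 with 1 library left out, NFE2 in OCI-AML3 over -0.11 to 0.12 and ITGA2B in OCI-AML3 over -0.239 to 0.014. Sets called between the OCI-AML3 clones numbered 301, 166 with a pseudocount of 0.1 TPM, 155 with those groups only, and 102 to 369 with 1 library left out. The replicate block changed no NFE2 or ITGA2B call (NFE2 line difference 1.02, adjusted p = 2.73e-06). Over all tested sets, libraries with the same number did not deviate together (median r = -0.0295 over 45 pairs). ITGA2B itself was highest in replicate 3 of every group, with the order in OCI-AML3 clone 1 unknown. In OCI-AML2 clones 1 and 2 its limma adjusted p was 0.0141 and 0.0122 with the block. With the compared groups only it was 0.00781 and 0.019.

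The unused lines with the same symbols, an alternative chosen after seeing the data, gave other results. For NFE2 they gave 0.22 in OCI-AML3 clone 1 (adjusted p = 0.163), 2.62 between the OCI-AML2 clones, 1.26 between the parental lines and -1.57 for the line difference. For ITGA2B they gave -0.49 in OCI-AML2 clone 2, -0.0326 and -0.0976 in the OCI-AML3 clones, -0.89 between the OCI-AML2 clones, -1.63 between the parental lines and -0.0169 for the line difference. The 2 lines of a symbol hold different sets of values by construction. Depth is unknown and limits the values below 1 TPM.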
